A study of Equus caballus with 16 samples.

Results

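Extracellular vesicles (EVs) of the follicular fluid were compared between the peak of the mare's breeding season and the ovulatory seasons on either side of it. The 4 summer libraries (SUM, collected in June and July) were set against the equal-weight mean of 4 libraries from April and May, the spring ovulatory season (SOV), and 3 from September, the fall ovulatory season (FOV_2 to FOV_4), so 11 of the 16 libraries entered. The spring anovulatory season (SAN) lies outside a comparison among ovulatory seasons, and FOV_1 was left out because the study removed it for its profile in these same data. The question was which EV miRNAs set the summer peak apart from the early and late parts of the same ovulatory year.

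All groups were untreated mares of 1 breed, aged 8 to 14 years and weighing 400 to 600 kg, and no group carried an induced genotype. In SUM, SOV and FOV alike, follicles were ablated after ovulation to start a new wave, and fluid was taken from growing follicles of 30 to 35 mm in mares with uterine edema and no corpus luteum. Each library held the EVs of 2 or 3 fluids combined, so a library is a small pool rather than a follicle. The study's methods state that the same herd was sampled in every season, so libraries of different seasons may share mares. The labels do not say which, and the tests treat the libraries as independent. Season differs between groups together with calendar date and any change in the animals over the year, and these cannot be told apart. The labels name no collection or sequencing batch.

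A miRNA is a short RNA that guides the Argonaute proteins to messenger RNAs, mostly through its seed, the bases 2 to 8 from the 5′ end. EVs carry miRNAs out of granulosa, theca, stromal and blood cells into the fluid, and other follicular cells, the cumulus cells among them, can take them up. A fluid EV sample has no cell type of its own, so the level of a miRNA reflects every cell that released vesicles into the follicle and whatever entered from plasma. Levels are given in CPM as deposited, in which the read counts of a library were divided by 1 TMM-adjusted factor, so that the columns of the 11 libraries add up to different totals (870491 to 1082212 CPM). They are relative to the rest of a library, so fewer vesicles from a given cell and less of the miRNA per vesicle cannot be told apart.

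The mature sequences below belong to the 8 miRNAs whose difference held under every setting tried, each followed by its most abundant tested partner with the same seed where one was compared, and to 2 further same-seed pairs described later. Capitals mark the seed, and T stands for U.
miR-184: tGGACGGAgaactgataagggt
miR-22: aAGCTGCCagttgaagaactgt
miR-323-3p: cACATTACacggtcgacctct
miR-125a-5p: tCCCTGAGaccctttaacctgtga
miR-125b-5p: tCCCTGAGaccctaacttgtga
miR-143: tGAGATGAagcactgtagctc
miR-145: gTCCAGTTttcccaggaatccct
miR-195: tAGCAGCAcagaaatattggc
miR-16: tAGCAGCAcgtaaatattggcg
miR-23b: aTCACATTgccagggattacc
miR-23a: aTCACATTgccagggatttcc
miR-146b-5p: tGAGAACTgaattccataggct
miR-146a: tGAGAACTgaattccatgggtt
miR-206: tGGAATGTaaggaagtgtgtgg
miR-1: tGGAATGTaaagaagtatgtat

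The 11 libraries held between 27131 and 112146 miRNA reads, with 27131 to 110062 in SUM, 41224 to 55086 in SOV and 39341 to 112146 in FOV. A single read was therefore worth 7.91 to 35.6 CPM, and 180 to 264 miRNAs had at least 1 read in a library. The deepest libraries were SUM_1, SUM_4 and FOV_4. Of 686 miRNAs listed, 314 had a read in these libraries, and 273 had a mean above 10 CPM in at least 1 of the 3 seasons and were tested. A season with no read allowed a mean of up to 9.29 CPM in SUM, 15.9 CPM in SOV and 15.6 CPM in FOV, taking 3 reads over the season as the limit. These limits cover counting error only. No 2 libraries were copies of each other.

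Of the 273 miRNAs, 27 (9.89%) differed between SUM and the mean of SOV and FOV at an adjusted p under 0.05 and a fold change (FC) of at least 2 in limma. Of these, 15 (5.49%) were higher in SUM and 12 (4.4%) were lower. The summer fluid was lower in the miR-143 and miR-145 pair and in miR-195 and miR-23b, and higher in miR-184, miR-22, miR-125a-5p and miR-323-3p. Among these, only miR-143, miR-145, miR-184 and miR-125a-5p also passed against FOV alone. Across all tested miRNAs the median log2 FC was 0.10, with 144 values above 0 and 129 below. The count rested on few libraries: it was 17 without SOV_1 or SOV_2, 13 without SUM_1 or SUM_4, 16 without SUM_2 or SUM_3, 12 without FOV_2 and 15 without FOV_3, against 35 without FOV_4. The quasi-likelihood test of edgeR on the recovered reads called 30 higher and 7 lower. In that fit the median of all miRNAs lay at 0.42.

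**Figure D1:**
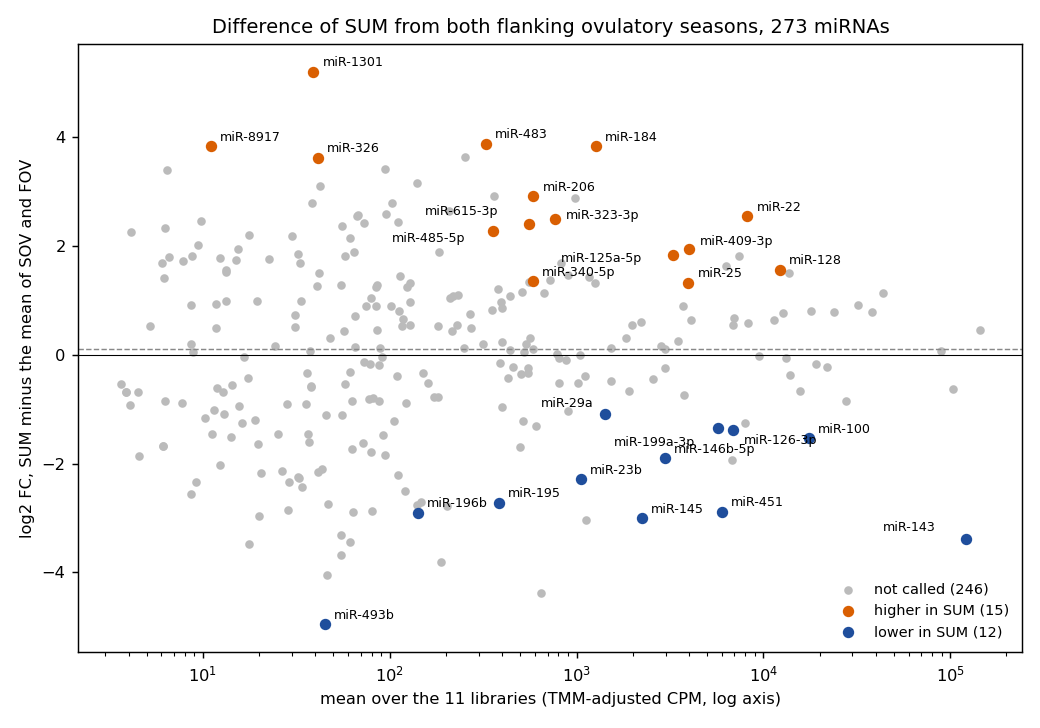
Each point is 1 of the 273 tested miRNAs, with its mean over the 11 libraries in CPM on a log axis and its log2 FC of SUM minus the mean of SOV and FOV. Orange points are the 15 called higher in SUM, blue points the 12 called lower, grey points were not called, and the dashed line is the median of all miRNAs at 0.10. The fall of miR-143 stands at the far right, among the most abundant miRNAs, while miR-1301 and miR-493b, with the largest differences, have means under 100 CPM.

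The largest change in abundance terms was that of miR-143. In human and mouse this miRNA is transcribed together with miR-145 and is typical of smooth muscle and other mesenchymal cells, a group to which the theca and stroma belong. miR-143 stood at 10996, 17569, 30275 and 10416 CPM in the SUM libraries, against 289954, 204141, 210111 and 166797 CPM in SOV and 161409, 152331 and 79699.6 CPM in FOV. The highest summer library was below the lowest of the 7 others, FOV_4. The mean was 17314 ± 9229.6 CPM in SUM, 217751 ± 51811 CPM in SOV and 131147 ± 44785 CPM in FOV (SD, n = 4, 4 and 3), a log2 FC of -3.38 (SE 0.36, limma adjusted p = 3.87e-05). The mean of the flanking seasons was 10.1 times that of SUM. By mean level miR-143 ranked 15th in SUM, 1st in SOV and 2nd in FOV.

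Its partner miR-145 behaved alike. Levels were 397, 488, 321 and 340.1 CPM in SUM, against 4712, 3563, 3469 and 2868 CPM in SOV and 3488, 3504 and 1467 CPM in FOV. The 4 summer values were close together, and all lay below those of the other seasons, of which FOV_4 was again the lowest. The log2 FC was -3.01 (SE 0.31, limma adjusted p = 3.87e-05). Against each flanking season on its own, log2 FCs were -3.76 over SOV and -2.99 over FOV for miR-143, and -3.23 and -2.78 in the same order for miR-145. All 4 of these passed the test, although both contrasts use the same SUM libraries.

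miR-195 belongs to the miR-15 and miR-16 family, whose members repress cyclins and other cell cycle genes in human and mouse cells. It was counted at 119, 44.4, 35.6 and 94.9 CPM in SUM, against 995, 949, 685 and 339.9 CPM in SOV and 339.7, 491 and 125 CPM in FOV. The groups did not overlap, but SUM_1 and FOV_4 were nearly level. Its log2 FC was -2.72 (SE 0.56, limma adjusted p = 0.00897). miR-23b, which lies beside miR-27b and miR-24 in mammalian genomes, had 496, 148, 214 and 293 CPM in SUM, against 2879.6, 1629, 1745 and 1062 CPM in SOV and 1472, 1205 and 483 CPM in FOV. Here FOV_4 fell just below SUM_1, and the remaining 6 flanking libraries were above every summer library. Its log2 FC was -2.29 (SE 0.44, limma adjusted p = 0.00685). Neither miR-195 nor miR-23b passed against FOV alone.

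Among the miRNAs that rose in summer, miR-184 had the largest difference of those that held under every setting. It is an old and strongly conserved miRNA, needed for egg development in Drosophila and abundant in the mammalian cornea. Levels reached 1527, 1745, 8370.2 and 949 CPM in SUM, against 209, 215, 498 and 191 CPM in SOV and 204, 67.0 and 48.3 CPM in FOV. SUM_3 was far above the other summer libraries, and the lowest summer value still exceeded the highest flanking value, that of SOV_3. The log2 FC was 3.83 (SE 0.60, limma adjusted p = 0.00216). The difference passed against SOV (3.06, limma adjusted p = 0.0114) and against FOV (4.61, limma adjusted p = 0.0024).

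miR-125a-5p, a relative of the worm miRNA lin-4 that in mammals shares a transcript with miR-99b and let-7e, was the other miRNA that rose against both seasons. It had 6365, 9686, 4737 and 3891 CPM in SUM, against 1702, 1755, 1371 and 892 CPM in SOV and 1631, 1942 and 2200.2 CPM in FOV. Every summer library was above every flanking one. The log2 FC was 1.84 (SE 0.31, limma adjusted p = 0.00245), with 2.07 over SOV and 1.60 over FOV (limma adjusted p = 0.0336). miR-99b and let-7e, looked up after the values were seen, were not called. Their FC of SUM over the mean of SOV and FOV was 0.84 and 1.01.

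miR-22 is made by many cell types and has been studied in mouse granulosa cells. Its level was 8943, 19683, 20302 and 16783 CPM in SUM, against 1204, 2149, 1765 and 1189.6 CPM in SOV and 2242, 3638 and 12574 CPM in FOV. SUM_1 was the lowest summer library and lay below FOV_4, whereas SOV_1 to SOV_4, FOV_2 and FOV_3 were below all of them. The log2 FC was 2.55 (SE 0.43, limma adjusted p = 0.00245), but against FOV alone it was 1.74 and did not pass (limma adjusted p = 0.0993).

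miR-323-3p comes from the imprinted DLK1-DIO3 locus, a large miRNA cluster expressed from the maternal chromosome in mammals. It had 892, 3224, 1033 and 1036 CPM in SUM, against 105, 215, 125 and 63.7 CPM in SOV and 204, 491 and 1023 CPM in FOV. SUM_2 was about 3 times as high as the other summer libraries, and FOV_4 lay within the summer range. The log2 FC was 2.50 (SE 0.53, limma adjusted p = 0.0102), and over FOV alone 1.50 (limma adjusted p = 0.25).

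**Figure D2:**
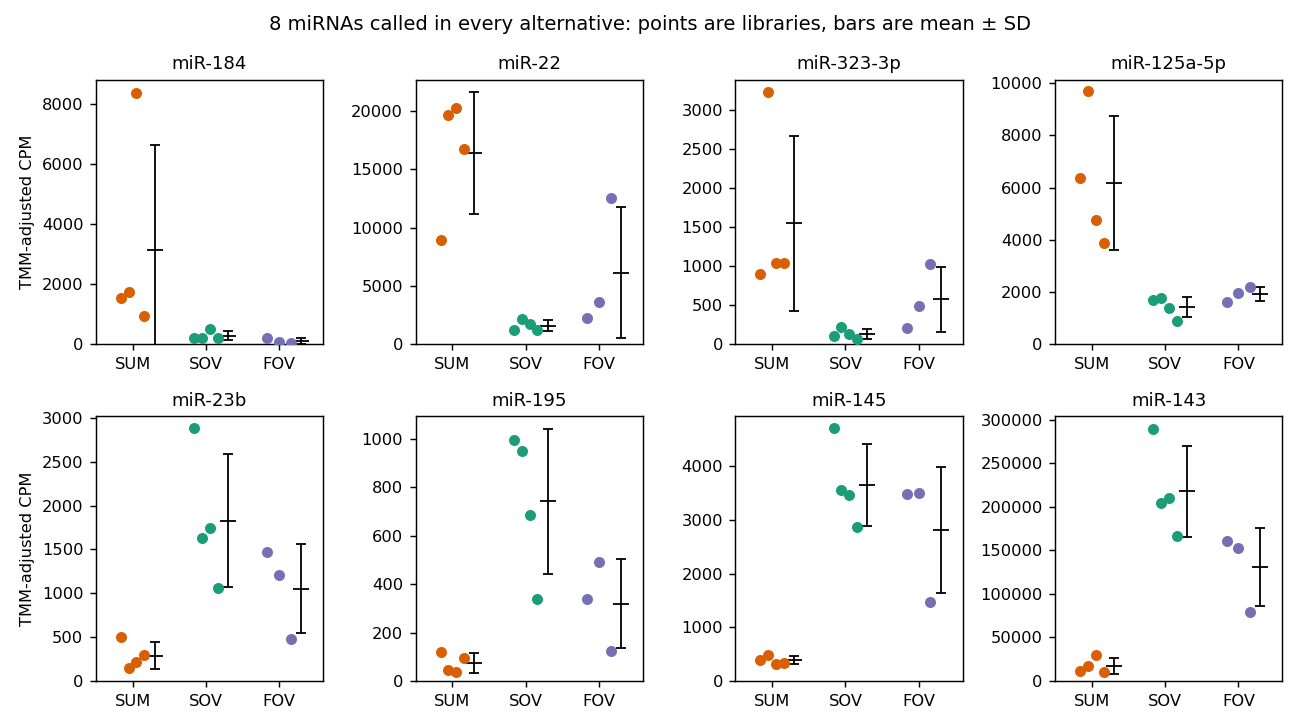
Panels show the 8 miRNAs that kept their call under every alternative and with each library left out, 4 higher and 4 lower in SUM, with CPM on linear axes that start at 0. Coloured points are the libraries of SUM, SOV and FOV, and black bars give the mean and SD of each season (the lower bar of miR-184 in SUM runs past 0 and is clipped). In the panel of miR-143 the summer points lie between 10416 and 30275 CPM, below all of the others.

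Of the 27 called miRNAs, those 8 kept their call throughout, and 11 kept it when any single library was left out, miR-128, miR-100 and miR-409-3p being the further 3. The other 16 each lost the call without at least 1 library. By tool, the quasi-likelihood test did not call miR-126-3p, miR-199a-3p, miR-29a, miR-196b, miR-451 and miR-8917, edgeR's likelihood ratio test did not call miR-126-3p, miR-199a-3p and miR-29a, and DESeq2 did not call miR-146b-5p, miR-326 and miR-8917.

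miR-409-3p and miR-485-5p, from the same imprinted locus as miR-323-3p, also rose. miR-409-3p had 5691, 8178, 6376 and 6865 CPM in SUM, against 471, 1164, 1246 and 743 CPM in SOV and 2197, 2567 and 8309 CPM in FOV (log2 FC 1.94, limma adjusted p = 0.00897). FOV_4 was above all summer libraries here, and the FOV mean was itself above that of SOV (log2 FC 2.09, limma adjusted p = 0.0307). miR-485-5p had 496, 917, 569.9 and 672 CPM in SUM, against 105, 107, 125 and 42.5 CPM in SOV and 90.6, 134 and 656 CPM in FOV (log2 FC 2.27, limma adjusted p = 0.0296). FOV_4 again stood within the summer range.

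miR-128, best known as a brain miRNA, was the most abundant of those that rose. It was at 18015, 17864, 17025 and 24107 CPM in SUM, against 1492, 4100.4, 4258 and 2783 CPM in SOV and 10848, 12253 and 21722 CPM in FOV, a log2 FC of 1.56 (limma adjusted p = 0.00915). Its summer rise was a difference from spring (2.71, limma adjusted p = 4.41e-04) more than from fall (0.42, limma adjusted p = 0.655), and FOV was above SOV by 2.29 (limma adjusted p = 0.0103). miR-326, an intronic miRNA of the beta-arrestin gene ARRB1, had the same order of seasons at a far lower level. It had 89.2, 44.4, 142 and 47.5 CPM in SUM, against no read in any SOV library and 22.6, 89.3 and 19.3 CPM in FOV (log2 FC 3.62, limma adjusted p = 0.0434).

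miR-25, of the miR-106b cluster in the MCM7 gene, had 10083, 4496, 2956 and 8549.7 CPM in SUM, against 1361, 1791, 1516 and 1593 CPM in SOV and 2355, 2924 and 6079.5 CPM in FOV (log2 FC 1.32, limma adjusted p = 0.0434). Its call was lost when any 1 of 9 libraries was left out. miR-340-5p, which falls outside the naming rule and is included after its values were seen, had 1438, 547, 890.4 and 1036 CPM in SUM, against 366, 340.2, 208 and 339.9 CPM in SOV and 453, 469 and 357 CPM in FOV (log2 FC 1.36, limma adjusted p = 0.0334). The groups of miR-340-5p did not overlap.

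miR-483 is encoded in an intron of the growth factor gene IGF2. Its values were 823, 1020.4, 534 and 506 CPM in SUM, against 26.2, 0, 62.3 and 85.0 CPM in SOV and 67.9, 44.6 and 444 CPM in FOV (log2 FC 3.88, limma adjusted p = 0.0443). FOV_4 came close to the lowest summer library, while FOV_2 and FOV_3 did not. miR-206, a skeletal muscle miRNA, had 1517, 444, 1817 and 1052 CPM in SUM, against 26.2, 125, 582 and 21.2 CPM in SOV and 566, 156 and 164 CPM in FOV (log2 FC 2.91, limma adjusted p = 0.0443). SUM_2 overlapped SOV_3 and FOV_2. miR-615-3p, which lies in the HOXC cluster, had 793, 636, 1852 and 823 CPM in SUM, against 52.4, 179, 187 and 85.0 CPM in SOV and 67.9, 268 and 1216 CPM in FOV (log2 FC 2.40, limma adjusted p = 0.0443). Here too FOV_4 was inside the summer range.

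The remaining 2 rises were of very low miRNAs. Both had a mean above 10 CPM in SUM only, so the filter let them in through the season where they were high. Their p-values are to be read with that limit. miR-1301 had 29 reads in SUM, at 79.3, 59.2, 142 and 103 CPM, against 1 read in SOV and 2 in FOV (log2 FC 5.21, limma adjusted p = 0.0314). miR-8917 had 11 reads in SUM, none of them in SUM_1, and none in SOV or FOV. Its mean in SUM was at least 3.87-fold higher than the 7.86 CPM that 3 reads over all flanking libraries would give (limma adjusted p = 0.0493), and at least 2.14-fold higher when the summer library that mattered most was left out.

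Among the falls, miR-100 belongs to an ancient family whose members sit beside let-7 and miR-125 genes. It had 7872, 8341, 7017 and 6383 CPM in SUM, against 12854, 10994, 10302 and 24174 CPM in SOV and 42124, 44215 and 19358 CPM in FOV (log2 FC -1.53, limma adjusted p = 0.00897). The summer libraries were tightly grouped and below the rest, and the distance was larger from fall (-2.17, limma adjusted p = 0.00493) than from spring (-0.90, limma adjusted p = 0.0996). miR-451 is the red blood cell miRNA that Argonaute 2 itself matures. It had 535, 4791, 784 and 395 CPM in SUM, against 5549.9, 2399, 2202 and 11407 CPM in SOV and 14947, 17432 and 5722 CPM in FOV (log2 FC -2.89, limma adjusted p = 0.0164). SUM_2 was 4791 CPM, within the spring range, while the other summer libraries were below all others.

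miR-146b-5p, a repressor of inflammatory signalling through TRAF6 and IRAK1, had 754, 1153, 1389 and 538 CPM in SUM, against 1885, 1539.9, 1807 and 10536 CPM in SOV and 5164, 5200.5 and 2654 CPM in FOV (log2 FC -1.90, limma adjusted p = 0.0334). No summer library reached the others, and SOV_4 stood far above its own group. The endothelial miRNA miR-126-3p had 2667, 6847, 2671 and 2191 CPM in SUM, against 11571, 8845, 8827 and 8731 CPM in SOV and 9965, 9419 and 4429 CPM in FOV (log2 FC -1.38, limma adjusted p = 0.0279). SUM_2 was the high summer library, as for miR-451.

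miR-199a-3p, a miRNA of mesenchymal cells, had 6088, 1390.1, 1460.3 and 3551 CPM in SUM, against 9634, 7914, 7560.3 and 10770.0 CPM in SOV and 5209, 5959 and 3657 CPM in FOV (log2 FC -1.35, limma adjusted p = 0.0443). SUM_1 exceeded all 3 fall libraries. miR-29a, which represses collagen genes, had 1120.4, 429, 1139.8 and 807 CPM in SUM, against 1623, 1719, 1059 and 1614 CPM in SOV and 2152, 1741 and 2306 CPM in FOV (log2 FC -1.09, limma adjusted p = 0.0493). Its call was lost when any 1 of the 11 libraries was left out. miR-196b, of the HOX clusters, had only 9 reads in SUM, at 9.91, 88.7, 35.6 and 7.91 CPM, against 366, 269, 187 and 85.0 CPM in SOV and 181, 246 and 86.9 CPM in FOV (log2 FC -2.90, limma adjusted p = 0.0434). miR-493b had 2 reads in SUM, both in SUM_4, against 11 in SOV and 13 in FOV (log2 FC -4.96, limma adjusted p = 0.0168). It passed the filter of 10 CPM only through the flanking seasons, where it was higher.

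**Figure D3:**
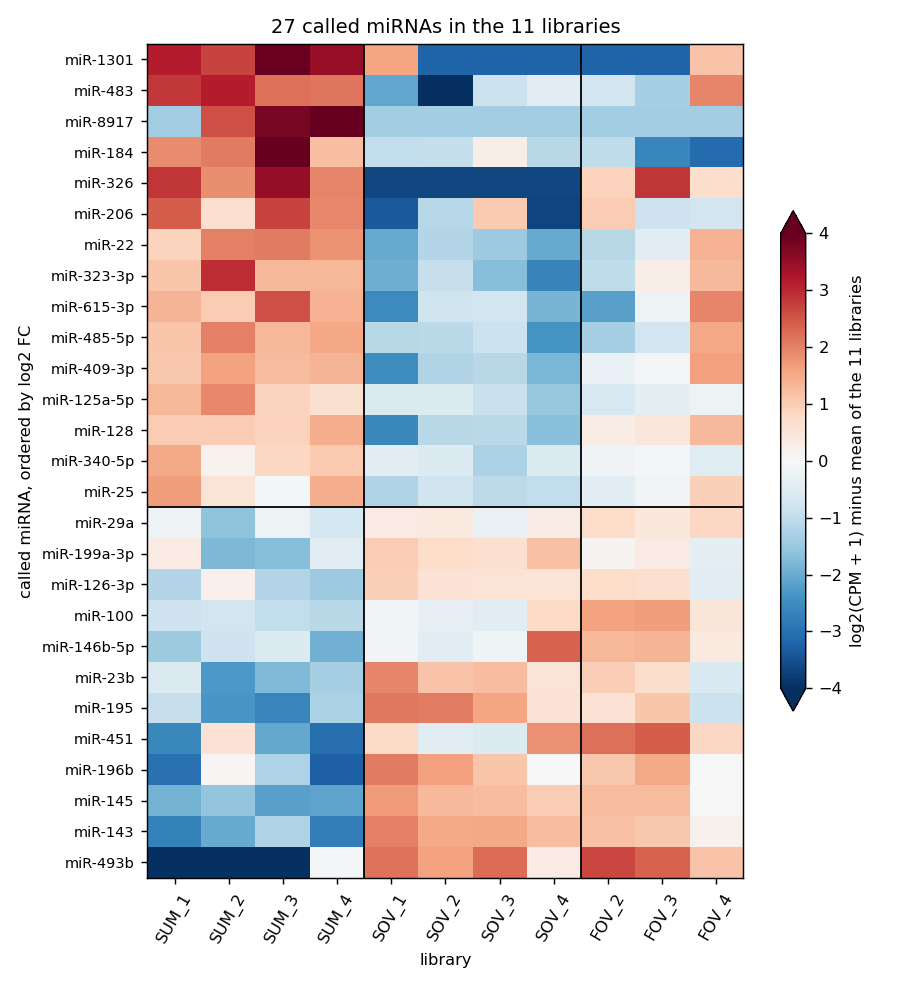
Rows are the 27 called miRNAs ordered by log2 FC and columns are the 11 libraries of SUM, SOV and FOV, with colour for log2(CPM + 1) minus the mean of the miRNA over the 11 libraries (red above, blue below, clipped at 4 in either direction). Black lines part the seasons and the 15 higher from the 12 lower miRNAs. In the upper block the column of FOV_4 is red for most rows, where FOV_2 and FOV_3 are paler or blue. The row of miR-326 is an exception, with FOV_4 the lowest of the fall libraries.

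Without any model, every SUM library lay above every SOV and FOV library for 8 miRNAs (2.93% of those tested) and below every one for 11 (4.03%), 19 (6.96%) in all. Of these, 5 and 6 were also called. The 3 that were above without a call were miR-10b and miR-183, with log2 FCs of 0.79 (limma adjusted p = 0.0656) and 1.14 (limma adjusted p = 0.0513), and the low miR-671-3p at 3.42 (limma adjusted p = 0.0924). miR-10b, a HOX cluster miRNA and one of the most abundant, had 42049, 72803, 50435 and 45343 CPM in SUM, against 28770.2, 38927, 30615 and 26171 CPM in SOV and 29306, 26538 and 30803 CPM in FOV. The 5 below without a call were miR-29b, miR-660, miR-28-5p, miR-196a and miR-497, named after their values were seen, all with summer values of 69.4 CPM or less. miR-497, which is transcribed together with miR-195, had 9.91, 14.8, 0 and 7.91 CPM in SUM, against 183, 35.8, 104 and 127 CPM in SOV and 45.3, 44.6 and 29.0 CPM in FOV (log2 FC -3.32, limma adjusted p = 0.0615).

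The comparison joins a spring and a fall contrast of unequal size. Against SOV alone, 47 miRNAs (17.2%) passed, 34 (12.5%) higher and 13 (4.76%) lower in SUM, with a median log2 FC over all miRNAs of 0.59. Against FOV alone, 7 (2.56%) passed, 2 (0.733%) higher and 5 (1.83%) lower, with a median of -0.18. These 7 were miR-184 and miR-125a-5p, which were higher, and miR-143, miR-145, miR-100, miR-451 and miR-302b, which were lower. miR-302b, a miRNA of pluripotent cells, had no read in any SUM library, against 1 SOV library with 42.5 CPM and 90.6, 335 and 38.6 CPM in FOV. It passed the filter of 10 CPM only through the flanking seasons, where it was higher, so its p-value is to be read with that limit. Between the flanking seasons themselves, 8 miRNAs (2.93%) were higher in FOV than in SOV and 0 lower in limma. At an unadjusted p under 0.05, 7 were lower in FOV, and DESeq2 called 8 lower where both edgeR tests called 0. Of the 15 that rose in summer, miR-326, miR-409-3p and miR-128 were also higher in FOV than in SOV, and of the 12 that fell 0 differed between FOV and SOV in limma or edgeR and 1 in DESeq2 (1 at an unadjusted p under 0.05 in limma). Without regard to calls, the mean log2 level was higher in FOV than in SOV for 13 of the 15 and 5 of the 12, against 184 of all 273.

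Among the called miRNAs FOV_4 stood apart from the other fall libraries. For 21 of the 27 called miRNAs it was the fall library nearest to the summer mean, and FOV_2 and FOV_3 were so for 3 each. It lay beyond every summer library, on the flanking side, for 15 of the 27, against 24 for FOV_2 and for FOV_3 and 23 to 26 for the spring libraries. Among the 8 miRNAs that kept their call throughout, FOV_4 lay beyond the summer range for 5 and each other flanking library for 8. All of these miRNAs were called by a contrast that includes FOV_4. The counts describe them alone, and shares over all tested miRNAs were not computed. FOV_4 was also the deepest library, with 112146 reads against 39341 and 41268 in FOV_2 and FOV_3, and the part of depth was not tested. Without FOV_4, 35 of 277 tested miRNAs were called against the mean of SOV and FOV, and 18 against FOV alone. Of the same 277, 25 had every summer library above and 17 every summer library below the others.

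All 27 called miRNAs had different seeds, so no seed was shared by 2 of them. Several had a partner with the same seed that was not called, and for 10 such pairs the log2 ratio of the 2 miRNAs within each library is given. The pairs were chosen after the values were seen, and the called member was picked by this same contrast, so the difference of the ratio between SUM and the mean of SOV and FOV is partly fixed by that choice and is a description with no test.

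miR-125a-5p and miR-125b-5p share their first 13 bases. miR-125b-5p was at 4521, 2248, 1852 and 2230.4 CPM in SUM, against 4031, 4959.8, 3635 and 4886 CPM in SOV and 4869, 5446 and 2721 CPM in FOV. miR-125a-5p was the more abundant of the pair in all 4 SUM libraries and the less abundant in all 7 others, a difference of 2.58 in the log2 ratio (2.27 to 2.81 with 1 library left out). miR-23b and miR-23a share their first 18 of 21 bases, and miR-23a had 1041, 725, 855 and 1099 CPM in SUM, against 1073, 949, 1350.1 and 1296 CPM in SOV and 1200.3, 1361 and 1226 CPM in FOV. The difference in the log2 ratio of miR-23b to miR-23a was -1.90, and FOV_4 lay within the summer range.

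miR-146b-5p and miR-146a agree over 17 bases and differ only near the 3′ end. miR-146a was at 2152, 3963, 4096 and 3844 CPM in SUM, against 1309, 985, 810.0 and 3696 CPM in SOV and 6273, 5200.5 and 6205 CPM in FOV. It exceeded miR-146b-5p in every SUM library, was below it in every SOV library, and matched or exceeded it in FOV, a difference of -2.15 in the log2 ratio of miR-146b-5p to miR-146a. The difference in the log2 ratio of miR-195 to miR-16 was -2.78, and miR-16 itself had 545, 503, 819 and 324 CPM in SUM, against 707, 501, 478 and 339.9 CPM in SOV and 566, 580.3 and 405 CPM in FOV. For miR-206 over miR-1 the difference in the log2 ratio was 4.85. miR-1 had 991, 1597, 14461 and 593 CPM in SUM, against 12278, 10546, 10614 and 5587 CPM in SOV and 7700.2, 7633 and 3223 CPM in FOV.

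In the other 5 pairs the difference in log2 ratio was 0.65 for miR-25 over miR-92a, 1.94 for miR-326 over miR-330, 0.38 for miR-29a over miR-29b, -0.90 for miR-100 over miR-99a and -0.017 for miR-196b over miR-196a. Reads of near-identical miRNAs, such as miR-23a and miR-23b, could be divided between them in more than 1 way in the counting, so these ratios are uncertain to that extent.

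**Figure D4:**
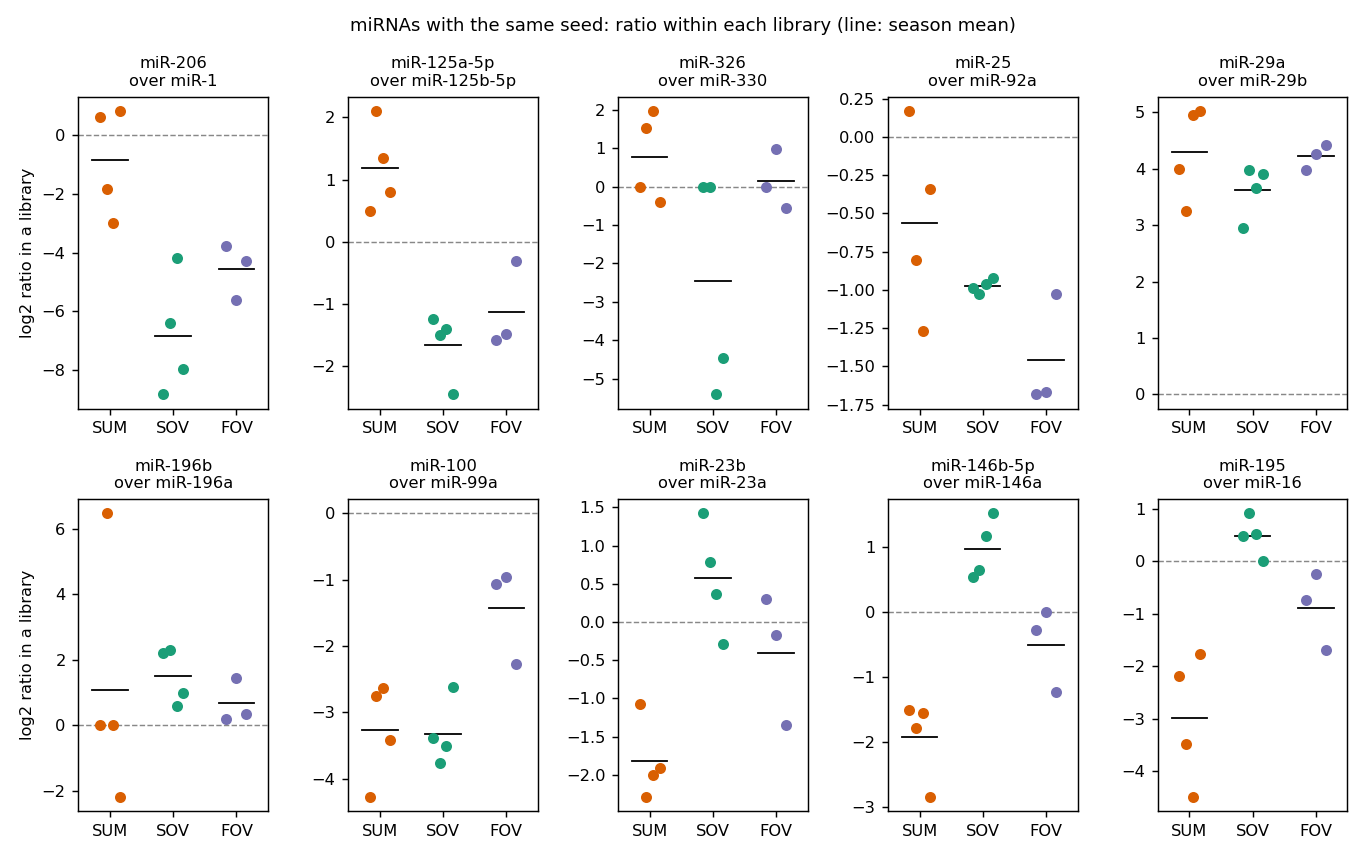
Points are libraries of SUM, SOV and FOV, lines are season means, and the vertical axis is the log2 ratio of the called miRNA to its partner with the same seed in that library, for the 10 pairs in the order of the difference between SUM and the mean of SOV and FOV. A pseudocount of 1 CPM was added to both, so a library with no read of either lies at 0. The dashed line marks equal levels, and each panel has its own scale. Summer points of miR-125a-5p over miR-125b-5p lie above 0 and all others below it.

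The most abundant miRNAs outside the calls were mostly level or scattered. miR-148a, which represses DNMT1 in human cells, had a mean of 166685 ± 42352 CPM in SUM, 126497 ± 90329 CPM in SOV and 136245 ± 51052 CPM in FOV (log2 FC 0.45, limma adjusted p = 0.485). miR-21, which is induced in granulosa cells before ovulation in the mouse, had 36824, 109996, 210821 and 31320.0 CPM in SUM, against 170946, 125607, 112470.4 and 34455 CPM in SOV and 52610.2, 55419.6 and 39913 CPM in FOV. Its log2 FC of 0.07 (limma adjusted p = 0.931) was small beside this spread. Values for the rest of the 10 highest were -0.64 for miR-99a, 1.13 for miR-192, 0.92 for miR-423-5p, -0.84 for miR-26a, 0.78 for miR-10a and -0.22 for let-7g, none of them called. The highest miRNA of a library was miR-148a in SUM_1, SUM_2, SUM_4, SOV_4 and FOV_4, miR-21 in SUM_3, and miR-143 in the remaining 5.

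The highest miRNA held 19.2 ± 3.26% of the signal in SUM, 23.8 ± 2.88% in SOV and 17.6 ± 0.888% in FOV (SD, n = 4, 4 and 3), a difference of -1.49 percentage points (exact permutation test, two-sided p = 0.546). The 20 highest together held 81.0 ± 2.66%, 88.9 ± 0.628% and 80.3 ± 2.24% in the same order (difference -3.60 points, exact permutation test, two-sided p = 0.232). Neither share of SUM passed this test. It reassigned the libraries among all 3 seasons, so the gap between SOV and FOV widened the spread it used. For the 20 highest, the SOV libraries all lay above the SUM libraries. Whether SUM differed from the mean of its neighbours beyond the spread within seasons was not tested.

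Named groups of miRNAs are described by the counts and medians of limma, beside the 5.49% higher, 4.4% lower and median of 0.10 of all tested miRNAs. Values of the other tools are to be read beside their own figures for all 273. These were 30 higher, 7 lower and a median of 0.42 in the quasi-likelihood test. In the same order they were 41, 15 and 0.42 in the likelihood ratio test, and 26, 18 and 0.085 in DESeq2. The miR-143 and miR-145 cluster fell as a whole, 2 of 2 members with a median of -3.19. Of 4 tested members of the miR-199 and miR-214 group, also mesenchymal, 1 fell (miR-199a-3p), and the median was -1.003. DESeq2 also called 1 lower, edgeR's tests 0, and the median was -0.079 in the quasi-likelihood test and -0.38 in DESeq2. Their summed level was 2736 to 10738 CPM in SUM, against 11569 to 14817 CPM in SOV and 5269 to 8995 CPM in FOV.

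Epithelial miRNAs did not pass the test. The 3 members of the group of miR-192 with miR-194 and miR-215 had a median of 1.04 with 0 called, and the 5 of the miR-200 family 0.90 with 0 called. At an unadjusted p under 0.05 in limma, 0 of the miR-192 group and 1 higher and 1 lower of the miR-200 family passed, and each count test called 0 of the miR-192 group and 1 higher of the miR-200 family, with 1 lower in DESeq2. Summed, the miR-192 group gave 64923 to 99259 CPM in SUM, against 7775 to 62892 CPM in SOV and 28921 to 180755 CPM in FOV. Summer lay wholly above spring here, but FOV_4 was above all.

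Growth and cell cycle families moved unevenly. Of 12 tested members of the miR-17, miR-92 and miR-25 clusters, which promote proliferation, 1 rose and 0 fell, with a median of 1.28, and the count tests called 5 or 6 higher and 0 lower. Summer reads of miR-17, miR-20a, miR-93 and miR-106b came mostly from SUM_1 and SUM_4, with 341, 7, 5 and 280 of miR-17 in SUM_1 to SUM_4. Whether the count calls rest on those libraries was not tested. Of 6 in the miR-15 and miR-16 family 1 fell and 0 rose, with a median of -1.86, and the likelihood ratio test and DESeq2 called 2 lower. The 5 members of the miR-23, miR-24 and miR-27 clusters had 1 fall, that of miR-23b, and a median of -0.17, with miR-27b at -0.17 and miR-24 at 0.76. The 7 let-7 members, which restrain growth in many tissues, had 0 calls in limma, edgeR or DESeq2, 1 lower at an unadjusted p under 0.05, and a median of -0.06. In the miR-183 cluster of 3, 0 were called in limma (median -0.84), 1 higher and 1 lower had an unadjusted p under 0.05, edgeR called 1 higher and DESeq2 1 lower, and miR-183 at 1.14 and miR-182 at -1.21 had opposite signs.

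The group of HOX cluster miRNAs with miR-99, miR-100 and miR-125 had 11 tested members, of which miR-615-3p and miR-125a-5p rose and miR-196b and miR-100 fell (median -0.25), while the quasi-likelihood test called 1 lower and DESeq2 3. Of 35 tested miRNAs of the DLK1-DIO3 cluster, 3 rose, 1 fell and 31 were not called in limma, with 24 values above 0 and a median of 0.75. The quasi-likelihood test also called 3 higher, DESeq2 4 and the likelihood ratio test 5, each with 1 lower. The summed level of that cluster was 14710.1 to 22286 CPM in SUM, against 5000.1 to 9723 CPM in SOV and 12008 to 25737 CPM in FOV. Among 8 tested granulosa and follicle miRNAs only miR-22 was called, as in edgeR and DESeq2, and the median was -0.89, against 0.0022 in the quasi-likelihood test. In limma, 1 of the 8 was higher and 2 were lower at an unadjusted p under 0.05. The 5 tested of the miR-302 and miR-371 group had 0 calls in limma, 1 lower at an unadjusted p under 0.05, and a median of -1.68 (0 calls in DESeq2 and edgeR's quasi-likelihood test, 1 in each direction in its likelihood ratio test), and miR-302c had no read in SUM or SOV.

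Markers of other tissues were read the same way. Of 4 erythrocyte miRNAs, miR-451 fell and 3 were not called in limma (median -0.70), where 2 were higher and 2 lower at an unadjusted p under 0.05. The count tests called 2 of the 4 higher, with 0 lower in the quasi-likelihood test (median 0.0063), 2 lower in the likelihood ratio test and 1 lower in DESeq2. miR-486-5p, which red blood cells also hold, had 9270.5, 67154, 16847 and 8099 CPM in SUM, against 1754, 6410.2, 4777 and 2039 CPM in SOV and 9376, 11495 and 13462 CPM in FOV, and miR-144 had no read in SUM. The summed erythrocyte level was 8589 to 73542 CPM in SUM, against 6979 to 13447 CPM in SOV and 19339 to 29105 CPM in FOV, the highest being SUM_2.

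Of 7 leukocyte miRNAs, miR-146b-5p fell in limma and the median was 1.09, and DESeq2 called 0 lower while the likelihood ratio test called 1 higher beside 1 lower. Of the endothelial pair, miR-126-3p fell in limma and DESeq2 but not in edgeR's tests, and miR-126-5p, from the other arm of the same hairpin, was at -0.33. The endothelial sum was 2222 to 6965 CPM in SUM, against 8858 to 11807 CPM in SOV and 4564 to 10101 CPM in FOV. The leukocyte sum was 3450.4 to 7765 CPM in SUM, against 2757 to 15103 CPM in SOV and 9322 to 11981 CPM in FOV. The part of blood in the results for miR-451, miR-146b-5p and miR-126-3p was not tested.

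The liver miRNA miR-122 had 8091, 9449.8, 8406 and 7181 CPM in SUM, against 628, 1039, 602 and 4099.8 CPM in SOV and 1200.3, 14664 and 14456 CPM in FOV, and was not called (log2 FC 1.62, limma adjusted p = 0.144). Summer and spring were apart, whereas FOV_3 and FOV_4 were above all summer libraries. Of 5 tested muscle miRNAs 1 rose, miR-206, and the median was -1.11. In limma, 1 of the 5 was higher and 1 lower at an unadjusted p under 0.05. Of 12 neural miRNAs 1 rose, miR-128, and the median was 0.30, where the count tests called 3 or 4 higher. The neural sum was 19234 to 139909.7 CPM in SUM, against 7646 to 31354 CPM in SOV and 31141 to 37229 CPM in FOV, a range set in SUM by miR-7 and miR-218.

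A list of 6 miRNAs that the study linked to the peak breeding period was chosen on these same libraries and is no independent evidence. Of its members, miR-143, miR-451 and miR-100 fell and 3 were not called in limma, with a median of -2.21. The quasi-likelihood test called 2 lower, DESeq2 3 and the likelihood ratio test 4. miR-192 was at 1.13, let-7c at -0.06 and miR-302b at -4.05 (limma adjusted p = 0.0615) in the comparison with both seasons.

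**Figure D5:**
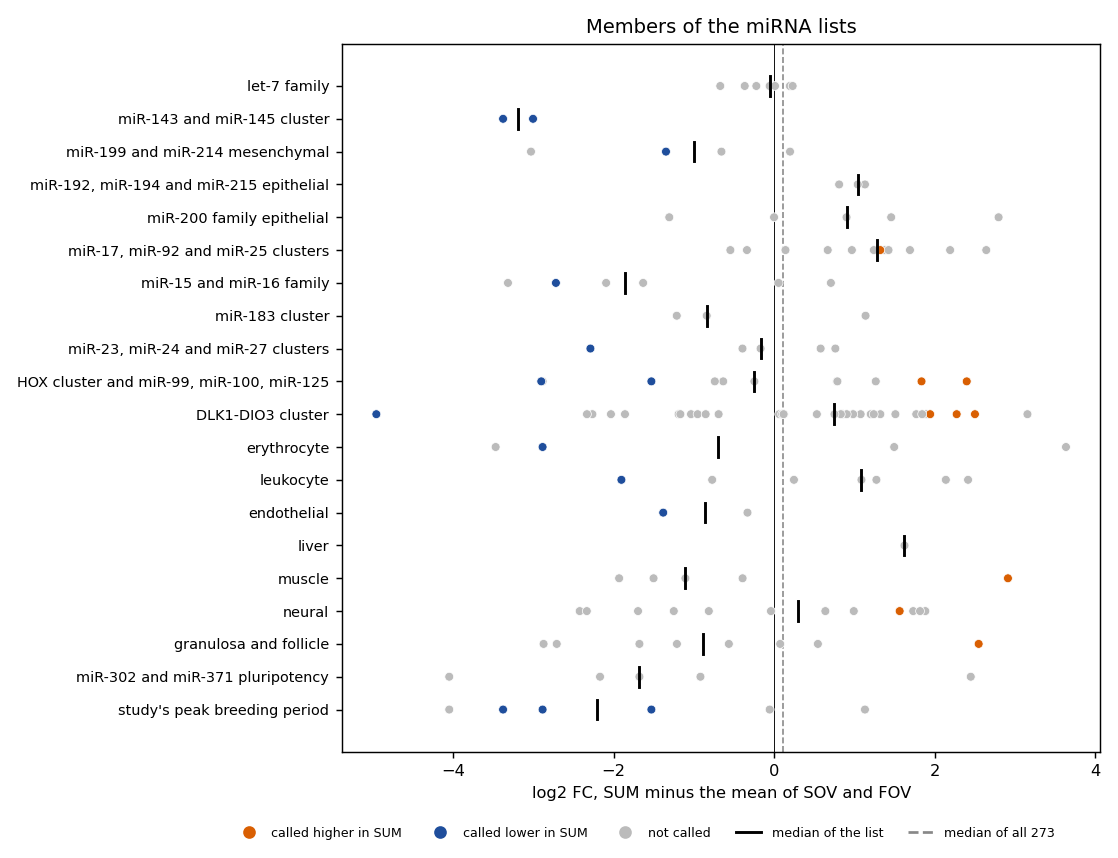
Each point is a tested member of the list named at the left, placed at its log2 FC of SUM minus the mean of SOV and FOV, with orange and blue for calls higher and lower in SUM and grey for no call. Black bars are list medians and the dashed line is the median of all 273 miRNAs at 0.10. The 2 points of the miR-143 and miR-145 cluster are both blue, while most points of the other lists are grey.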

How the data were processed

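EVs were isolated from follicular fluid by ultracentrifugation and small RNA was sequenced. The study's methods describe trimming (Q-score above 30, at most 2 ambiguous bases, at least 15 bases) in CLC Genomics Workbench 21, EquCab3.0 and miRBase 22, whereas the submitters' processing notes name bcl2fastq, Bowtie2 2.2.2 and DESeq2, and which of these made the table could not be settled. The authors deposited a signal in TMM-adjusted CPM, counts divided by an effective library size, so column totals differ. All values were whole multiples of 1 read (100% within 1e-06), so reads were recovered for the count tests, 27131 to 112146 per library. Tests used limma 3.58.1 (trend) on log2(CPM + 1) in R 4.3.3, for 273 miRNAs with a mean above 10 CPM in any season. The pseudocount of 1 CPM is below the 7.91 to 35.6 CPM of a single read. The log2 FC of a low miRNA therefore depends on it and on libraries without a read, and can lie on either side of the ratio of means. The fitted FC was 36.9 for miR-1301 (ratio of means 14.8), 12.3 for miR-326 (3.70) and 8.59 for miR-592 (34.5). A call is an adjusted p (Benjamini-Hochberg) under 0.05 with FC of at least 2. Libraries were combined from few fluids of a herd sampled in every season, so p-values measure the spread between libraries, and mares shared between seasons could not be modelled. Alternatives (edgeR 4.0.16, DESeq2 1.42.0, other scalings, filters, pseudocounts, libraries left out) were run. Named miRNAs are the 12 largest rises and falls, called list members (or the 2 most abundant), the 10 highest means and the study's list. The members, lists and comparison were chosen with earlier results of these data known. Sequences are those of the study's supplementary sheet of expressed miRNAs, matched by name for 273 of 273. No genome coordinates were used here.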

Additional observations from a re-analysis of the deposited data

Results flagged for a closer look

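Within the SUM and SOV groups of 4, the highest or lowest library of a reported miRNA was set against the rest by Dixon's criterion on log2(CPM + 1). It was met in 15 of 110 groups, where chance gives about 1 in 20, or 5.5, if no values are tied. A group with reads in only 1 library meets the criterion by construction, as did miR-493b in SUM_4, miR-302b in SOV_4 and miR-1301 in SOV_1. The excess over 5.5 is therefore overstated. In SUM, these were miR-323-3p in SUM_2 (3224 CPM), miR-192 in SUM_4 (75872 CPM), miR-128 in SUM_4 (24107 CPM), miR-146a in SUM_1 (2152 CPM, low) and miR-493b in SUM_4 (15.8 CPM, where the others had no read). SOV_4 stood apart for 5 miRNAs, being high in miR-148a (261751 CPM), miR-146b-5p (10536 CPM) and miR-302b (42.5 CPM) and low in miR-24 (3909 CPM) and miR-485-5p (42.5 CPM). SOV_3 was high in miR-184 (498 CPM) and low in miR-29a (1059 CPM) and miR-340-5p (208 CPM). SOV_1 was high in miR-126-3p (11571 CPM) and in miR-1301 (26.2 CPM, a single read).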

How the results depend on the processing

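Over 58 named miRNAs and all settings, 1378 of 1619 values kept direction and side of the threshold, 178 lost the call, 28 gained one and 35 changed sign. The 27 calls became 33 with FOV_1 kept, 33 with all 16 libraries, 28 with SAN in the fit, 24 with robust moderation and 23 to 26 under other scalings. They became 16 (7 higher) with the 7 flanking libraries pooled, 37 (30 higher, 7 lower) in edgeR's quasi-likelihood test, 56 (41 higher) in its likelihood ratio test and 44 (26 higher) in DESeq2. Same-numbered libraries of different seasons had correlations of -0.12 to 0.12, with 1 of 10 over 0.1. This cannot exclude a pairing, since each library is a pool of 2 or 3 fluids. A replicate block gave 12 calls (6 higher, 6 lower), 4 for SUM against FOV and 0 for FOV against SOV. SUM against FOV gave 11 calls with FOV_1 kept, 14 with all 16 libraries, 18 in the likelihood ratio test and 16 in DESeq2. FOV against SOV gave 0 under median of ratios scaling, 5 under TMM over the 11 libraries, 16 in the likelihood ratio test and 20 in DESeq2. Leaving out 1 library gave 12 to 35 calls (6 to 20 higher, 6 to 15 lower), 30 to 50 for SUM against SOV, 4 to 18 for SUM against FOV, 2 to 18 for FOV against SOV, and 8 to 25 miRNAs with all summer libraries above and 11 to 17 below. The shares of the highest and of the 20 highest miRNAs then differed by -2.40 to -0.18 and by -4.38 to -2.62 points. The cause of these changes was not tested, except that fewer samples were fitted when a library was left out.

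No called miRNA changed sign. The log2 FC of miR-21 was -0.11 with FOV_1 kept and with all 16 libraries, -0.035 under median of ratios and -0.44 to 0.47 with 1 library left out, below 0 without SOV_4, SUM_2 or SUM_3. That of miR-200b was 0.046 pooled, 0.0017 with a pseudocount of 20 CPM, 0.037 with equal totals, 0.18 under TMM, 0.016 with the replicate block, 0.42 in both edgeR tests, 0.16 in DESeq2 and -0.49 to 0.33 with 1 library left out, above 0 without SOV_1, SOV_2, SUM_1, SUM_4, FOV_2 or FOV_4. miR-16 was at -0.054 under median of ratios, -0.047 in DESeq2 and -0.16 to 0.28 with 1 left out (below 0 without SOV_4, SUM_3 or FOV_4), and miR-27b at 0.0089 under TMM. let-7c was at 0.12 under TMM, 0.15 in both edgeR tests and -0.19 to 0.13 with 1 left out (above 0 without SUM_4). miR-126-5p was at 0.14 and 0.095 in edgeR's tests and -0.89 to 0.26 with 1 left out (above 0 without SUM_4), and miR-218 at -0.61 to 1.81 (below 0 without SUM_1 or SUM_4). The log2 ratio of miR-196b to miR-196a, one of the pair ratios whose alternatives were chosen after seeing the data, was 0.45 with a pseudocount of 0.25 CPM and -1.82 to 1.07 with 1 library left out, above 0 without SOV_1, SOV_2, SUM_1, SUM_3, SUM_4 or FOV_3. The median of all miRNAs was -0.0051 under median of ratios, 0.14 with equal totals, 0.27 under TMM and 0.42 in the quasi-likelihood test. List medians changed sign for let-7 (0.12 under TMM, 0.081 in the quasi-likelihood test), for the miR-23, miR-24 and miR-27 clusters (0.0089 under TMM), and for the erythrocyte (0.0063) and granulosa and follicle (0.0022) lists in the quasi-likelihood test. Depth limits miRNAs below about 100 CPM, where a library holds only a few reads.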

Other observations

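Several miRNAs of SUM were uneven within the season, and values are given for 3 of them, chosen after they were seen. miR-7, a neural and endocrine miRNA, had 39848, 1153, 1353 and 25436 CPM in SUM_1 to SUM_4, against 2513, 1432, 1267 and 2953 CPM in SOV and 2016, 2277 and 1013 CPM in FOV. miR-218 had 60987, 399, 463 and 38066 CPM in SUM, against 1518, 1056, 1392 and 1614 CPM in SOV and 8448, 8548 and 3329 CPM in FOV, and miR-592 had 317, 0, 0 and 127 CPM in SUM, against no read in SOV and 0, 0 and 19.3 CPM in FOV. In all 3, SUM_1 and SUM_4 were high and SUM_2 and SUM_3 low, and none was called (log2 FC 1.82, 0.64 and 3.10, limma adjusted p = 0.207, 0.732 and 0.259). The same split was seen in others, among them miR-17, miR-20a, miR-93, miR-106b and miR-107a. For example, miR-20a had 569, 18, 6 and 479 reads in SUM_1 to SUM_4. SUM_1 and SUM_4 were also the deepest summer libraries, and the part of depth was not tested.

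The libraries outside the comparison can be placed against the summer range. FOV_1 lay beyond every SUM library, on the flanking side, for 24 of the 27 called miRNAs and for 8 of the 8 that kept their call throughout, with 272479 CPM of miR-143. The 4 SAN libraries did so for 20 to 26 of the 27 and for 8 of the 8 each. The 27 were called because SUM was high or low, so another library tends to fall on the flanking side by that choice. FOV_1 also entered some of the settings that the 8 had to pass. These counts are a description, and shares over all tested miRNAs were not computed. miR-143 was at 180174, 171124, 138473 and 139608 CPM in the SAN libraries and miR-22 at 1362, 6006, 5670.5 and 2587 CPM. miR-615-3p reached 151, 3744, 4489 and 331 CPM in SAN, where SAN_2 and SAN_3 were above every summer library.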
